A study of Mus musculus with 9 samples.

Results

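The 8 genes described here, Acadl, Acadm, Acaa2, Cpt1a, Cpt2, Hadha, Cd36 and Pdk4, take part in the uptake and mitochondrial oxidation of fatty acids. They were taken by name, with every probe set that the array holds for each, and their levels were followed across 3 genotypes of colonic mucosa. They are 8 of 18193 genes with at least 1 probe set of their own, and they have 16 of 34945 such probe sets. All 8 genes passed the filter on low values through their brightest probe set, and 13 of the 16 probe sets did. Although the group is also named for ketogenesis, none of the 8 is an enzyme of ketone body synthesis.

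RNA came from colonic mucosa of male mice aged 6 weeks on a C57BL/6 background, and each genotype was measured on 3 Affymetrix arrays of 45101 probe sets. The genotypes were transgenic mice carrying hGAS, mice homozygous for loss of the gastrin gene (Gas-/-), and wild-type mice (WT), and the series concerns the dependence of proliferation on progastrin, the precursor of gastrin. The labels do not give the promoter or the cells that drive hGAS, and they do not say whether a sample is 1 mouse or a pool. Values are log2 expression after GCRMA, so a difference of 1 is a 2-fold change, and a probe set was tested if at least 3 arrays reached 4. No label says that replicates came from separate mice, so the p-values measure only the spread between these samples. Array medians lay between 4.13 and 4.16, between 50.8% and 51.0% of probe sets reached a value of 4, and correlations between arrays of 1 genotype were 0.990 to 0.996. On the first principal component of the genes tested, which held 53.9% of the variance, the Gas-/- arrays lay at 25.8 to 30.1. The hGAS and WT arrays lay at −19.2 to −8.38. The second component held 18.1% of the variance. On it WT replicate 3 stood apart at 25.0, where the other 8 arrays lay between −16.1 and 7.72. WT replicate 3 was also low for enterocyte and adipocyte markers. Without it the same numbers of the 8 genes passed, 2 in Gas-/- against WT, 0 in hGAS against WT and 3 in hGAS against Gas-/-. The gastrin probe set was below 4 on all 9 arrays, with means of 1.95 ± 0.01 in hGAS, 2.08 ± 0.08 in Gas-/- and 1.96 ± 0.02 in WT mucosa (SD, n = 3 each), so it checks neither genotype. The Gapdh control probe sets, read as 3′ minus 5′ signal, gave −0.154 to −0.0683 in hGAS, −0.117 to −0.0885 in Gas-/- and −0.176 to −0.138 in WT mucosa, and the Gas-/- and WT values did not overlap. The 9 epithelial markers were all measured and had a summed level of 16.26 to 16.31 in hGAS, 16.36 to 16.37 in Gas-/- and 16.24 to 16.34 in WT mucosa, so the defining markers of the labelled tissue were present. In Gas-/- against WT mucosa, 2 of these 9 and 1 of 7 goblet cell markers were higher (6.64% of all genes) and 0 lower. In hGAS against Gas-/- mucosa, 2 of the 9 and 3 of the 7 were lower (8.51% of all genes) and 0 higher. Muscle RNA was present too. The 8 smooth muscle markers summed to 15.86 to 15.99 in hGAS, 15.77 to 15.97 in Gas-/- and 15.87 to 16.05 in WT mucosa, and 0 were called in any comparison.

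Fatty acids enter a cell partly through the membrane protein CD36, are activated to acyl-CoA, and pass into mitochondria through the carnitine shuttle, in which CPT1A loads them onto carnitine and CPT2 returns them to CoA. Inside, each round of beta-oxidation runs through an acyl-CoA dehydrogenase, a hydratase, a hydroxyacyl-CoA dehydrogenase and a thiolase. Colonocytes are known for drawing much of their energy from oxidation of butyrate made by gut bacteria. Butyrate also goes through beta-oxidation, starting with a short-chain dehydrogenase, and does not need the carnitine shuttle. Many genes of the pathway are known targets of PPARα, a nuclear receptor that fatty acids activate.

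Promoter windows are shown for the 3 genes with a difference past the threshold, Cd36, Cpt2 and Acadl. RefSeq windows of assembly GRCm38.p6, each of 300 bases around a listed start, were matched for 7 of the 8 genes. For Cd36 and Cpt1a the window lies inside the gene's full extent in the same RefSeq assembly, so it is not at the outermost start of the gene. The 5 motifs named here were searched on both strands. Each window is written 5′ to 3′ on the gene's strand, and capitals mark matches to the nuclear receptor half-site (AGGTCA), the GC box (GGGCGG) or the CCAAT box, on either strand (GGGCGG reads CCGCCC and AGGTCA reads TGACCT on the other). The Cd36 window lies at chr5:17835847-17836146 on the minus strand and is 43% G and C. The Cpt2 window lies at chr4:107923540-107923839 on the minus strand and is 57.3% G and C. The Acadl window lies at chr1:66863260-66863559 on the minus strand and is 70.3% G and C.
Cd36: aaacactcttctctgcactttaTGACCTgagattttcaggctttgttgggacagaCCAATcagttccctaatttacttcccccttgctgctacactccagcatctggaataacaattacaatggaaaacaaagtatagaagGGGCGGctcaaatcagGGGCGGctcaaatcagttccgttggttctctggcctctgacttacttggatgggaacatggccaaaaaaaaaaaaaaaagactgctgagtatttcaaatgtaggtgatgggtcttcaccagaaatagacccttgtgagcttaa
Cpt2: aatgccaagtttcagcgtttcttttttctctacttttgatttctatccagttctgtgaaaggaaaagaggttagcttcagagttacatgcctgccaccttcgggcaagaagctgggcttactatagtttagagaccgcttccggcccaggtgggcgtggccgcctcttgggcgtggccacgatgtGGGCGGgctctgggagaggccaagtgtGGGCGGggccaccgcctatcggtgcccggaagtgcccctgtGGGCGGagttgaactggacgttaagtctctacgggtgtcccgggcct
Acadl: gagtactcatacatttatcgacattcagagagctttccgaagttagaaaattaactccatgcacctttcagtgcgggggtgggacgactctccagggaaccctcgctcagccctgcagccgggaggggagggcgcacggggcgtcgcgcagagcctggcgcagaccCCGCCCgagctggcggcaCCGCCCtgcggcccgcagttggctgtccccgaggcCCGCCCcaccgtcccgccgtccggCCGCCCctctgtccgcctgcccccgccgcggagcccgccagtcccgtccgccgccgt
A full PPAR response element, searched as AGGTCA repeated in the same direction with 1 base of any kind between, was in 0 of the 7 windows and in 0.0396% of the 32851 windows of all genes. Its half-site alone, AGGTCA, was in 3 of 7 windows (Cd36, Cpt1a and Acadm), against 16.3% of all windows, and every full element also holds it. The GC box was in 5 of 7 windows, with 2 matches in Cd36, 3 in Cpt2 and 4 in Acadl, against 35.7% of all windows. The CCAAT box was in 3 of 7 (37.4% of all) and TATAAA in 0 of 7 (13.6% of all). The Cd36 window carries a 16-base stretch, AGGGGCGGCTCAAATC, in 2 copies that start at positions 140 and 156, and each copy holds 1 GC box. These matches describe the letters of the windows only.

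Of the 8 genes, 2 differed between Gas-/- and WT mucosa, 0 between hGAS and WT mucosa, and 3 between hGAS and Gas-/- mucosa, at an adjusted p under 0.05 in a limma fit over 11273 genes. In Gas-/- against WT mucosa, Cd36 was 1.90-fold higher and Acadl 1.15-fold lower. In hGAS against Gas-/- mucosa, Cpt2 and Acadl were higher by 1.17-fold each and Cd36 was 1.50-fold lower. The background for these counts was 12.1% of all genes called in Gas-/- against WT (6.64% higher, 5.48% lower), 1.16% in hGAS against WT (0.639% higher, 0.523% lower) and 16.6% in hGAS against Gas-/- (8.05% higher, 8.51% lower). The moderated F test over the 3 genotypes called 4 of the 8, Cd36 (adjusted p = 0.00388), Acadl (0.0127), Acaa2 (0.0440) and Cpt2 (0.0474), against 15.8% of all genes. The count of 2 in Gas-/- against WT was 1 without WT replicate 1, Gas-/- replicate 1 or Gas-/- replicate 3. The count of 3 in hGAS against Gas-/- was 1 without hGAS replicate 3. It also fell without hGAS replicate 1, where Cd36 no longer passed. Without hGAS replicate 2, Gas-/- replicate 1 or Gas-/- replicate 3 it fell because Cpt2 no longer passed. The 3 comparisons share arrays in pairs, so their values are not independent of each other. In tissue RNA of mixed cells, fewer cells of a type and less RNA per cell cannot be told apart.

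**Figure D1:**
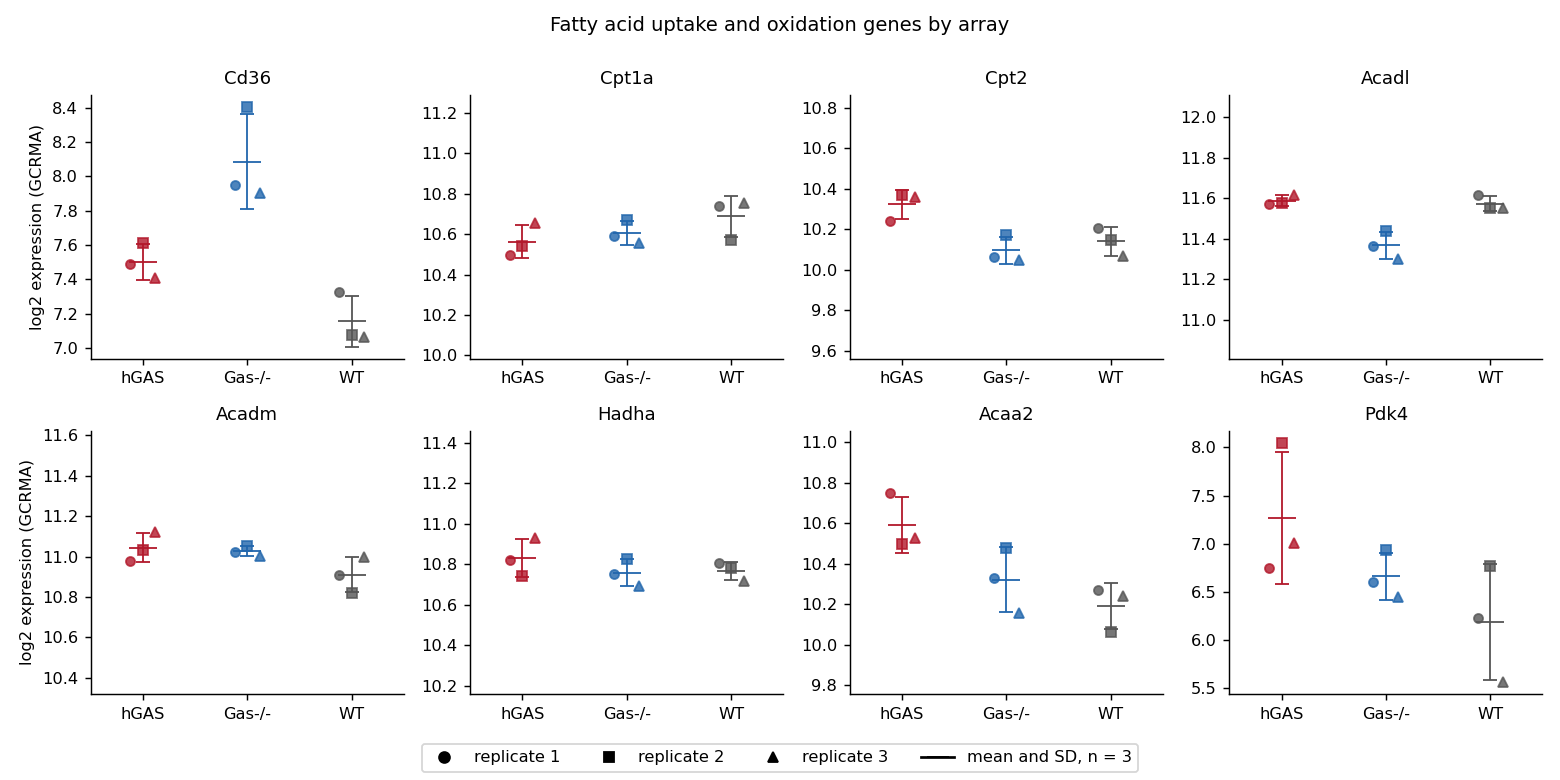
The log2 expression of each of the 8 genes on each of the 9 arrays, with hGAS left, Gas-/- in the middle and WT right; symbols are replicates 1 to 3, and bars are the mean and SD (n = 3). Cd36 lay at 7.90 to 8.40 in Gas-/- mucosa and at 7.07 to 7.33 in WT mucosa, while the Pdk4 values spread widely within hGAS (6.75 to 8.05) and WT (5.56 to 6.76) mucosa.

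The medians over the 8 genes were small. In hGAS against WT mucosa 7 of the 8 differences were above 0, with a median of 0.16 (0.01 over all genes), and although 5 of the 8 had an unadjusted p under 0.05, 0 passed the adjustment. The median was 0.05 in Gas-/- against WT (0.01 over all genes), with 2 unadjusted p under 0.05, and 0.15 in hGAS against Gas-/- (0.00 over all genes), with 4. The shares of all genes with an unadjusted p under 0.05 were not counted, so these counts have no background. Groups did not overlap for 3 of the 8 genes in Gas-/- against WT, for 3 in hGAS against WT and for 4 in hGAS against Gas-/-, where the shares of all genes were 31.1%, 17.7% and 36.7%.

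**Figure D2:**
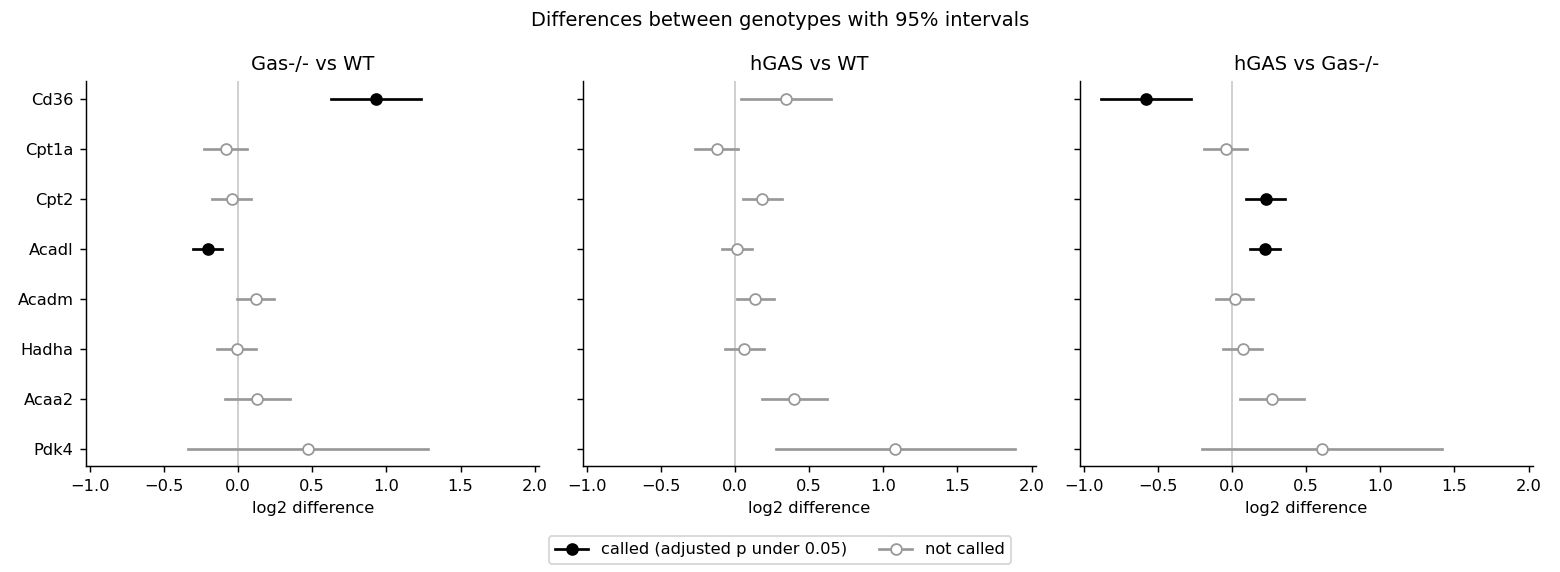
The log2 difference of each gene in the 3 comparisons, with its 95% confidence interval from the limma fit; the vertical line marks no difference, and filled points passed. The Cd36 interval is 0.63 to 1.23 in Gas-/- against WT and −0.89 to −0.28 in hGAS against Gas-/-, and the Hadha intervals span 0 in all 3 comparisons.

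Cd36, the scavenger receptor that takes up long-chain fatty acids and oxidised lipoproteins, had the largest called difference among the 8 genes. On probe set 1450883_a_at its log2 values were 7.49, 7.61 and 7.40 in hGAS mucosa, 7.95, 8.40 and 7.90 in Gas-/- mucosa, and 7.33, 7.07 and 7.07 in WT mucosa. All 3 Gas-/- arrays were above all others, and replicate 2 was the highest. Cd36 rose in Gas-/- against WT mucosa, by 0.93 (SE 0.13, limma adjusted p = 0.00186). It was lower in hGAS than in Gas-/- mucosa, with a difference of −0.58 (SE 0.13, limma adjusted p = 0.0172). The difference between hGAS and WT mucosa, 0.35 (95% interval 0.04 to 0.65, limma adjusted p = 0.281), did not pass although the groups did not overlap. Leaving out hGAS replicate 1 (−0.58, limma adjusted p = 0.0565) or replicate 3 (−0.53, 0.0551) ended the call between hGAS and Gas-/-.

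The second Cd36 probe set, 1423166_at, read 6.03, 6.26 and 6.23 in hGAS mucosa, 6.63, 7.07 and 6.71 in Gas-/- mucosa, and 6.22, 6.02 and 6.01 in WT mucosa. With every probe set fitted as a feature, where 11% of probe sets were called in Gas-/- against WT, 0.873% in hGAS against WT and 14.8% in hGAS against Gas-/-, its differences were 0.72 (limma adjusted p = 0.00561), 0.09 (0.801) and −0.63 (0.00968). On this probe set hGAS and WT mucosa overlapped. The third, 1450884_at, was below the filter and reached 4 on 1 array only, Gas-/- replicate 2, at 4.41.

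CD36 is made by adipocytes, macrophages and endothelial cells as well as by enterocytes, so the summed levels of their marker genes are given beside it. The 6 measured of 8 adipocyte markers summed to 9.76–10.60 in hGAS, 10.68–11.32 in Gas-/- and 9.47–10.38 in WT mucosa, and the highest sum was in Gas-/- replicate 2. Of these, 3 passed the filter, 0 were called in Gas-/- against WT (Adipoq 2.04, limma adjusted p = 0.144, Cidec 1.20, 0.120, and Fabp4 0.79, 0.066) although all 3 had an unadjusted p under 0.05, and Lep, Lipe and Retn were near background. The adipocyte sum is mostly Fabp4. Fabp4 averaged 9.85 in hGAS, 10.60 in Gas-/- and 9.81 in WT mucosa, and the sum 10.06, 10.90 and 9.99. All 10 macrophage and monocyte markers were measured, with sums of 12.27–12.65 in hGAS, 12.87–13.02 in Gas-/- and 12.53–12.57 in WT mucosa. Of these 10, 4 rose in Gas-/- against WT (Cd163 by 0.67, Mpeg1 by 0.58, Lyz2 by 0.52 and Cd14 by 0.39), and 6 were lower in hGAS than in Gas-/- mucosa. The 12 endothelial markers summed to 10.18–10.38 in hGAS, 10.36–10.41 in Gas-/- and 10.33–10.35 in WT mucosa, and 1 of 12, Cldn5, fell in hGAS against Gas-/- (−0.81). Plasma cell markers summed to 14.77–15.10 in hGAS, 15.20–15.33 in Gas-/- and 14.15–14.72 in WT mucosa. B cell markers summed to 6.27–6.94 in hGAS, 8.71–9.47 in Gas-/- and 7.87–8.54 in WT mucosa. The part of these cells in the Cd36 difference was not tested.

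**Figure D3:**
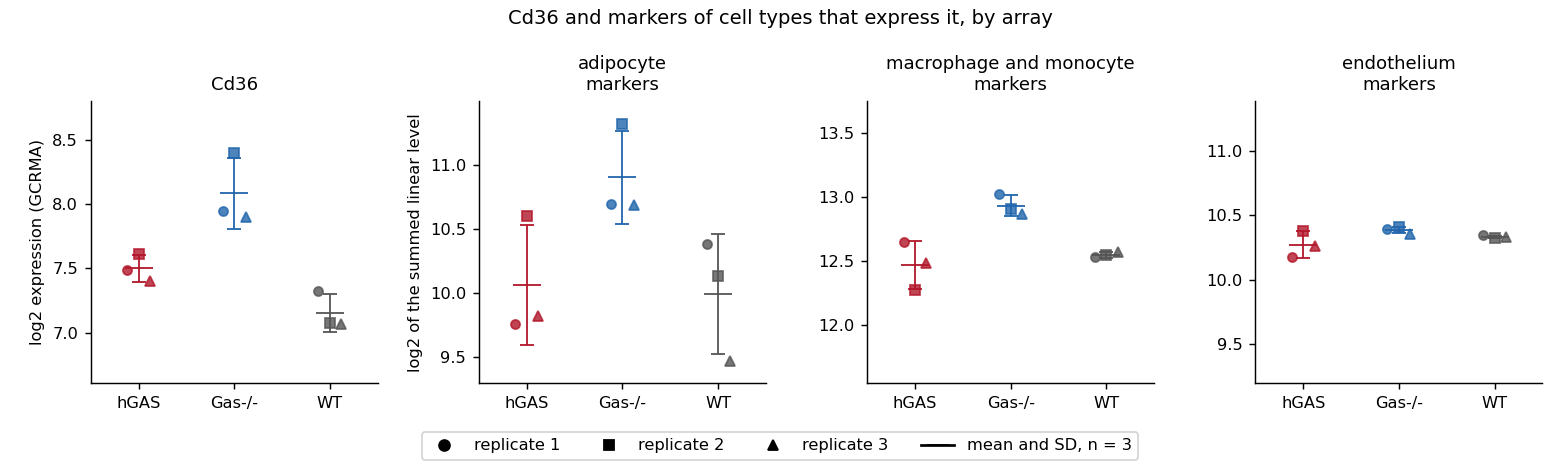
The log2 level of Cd36 (left panel) and the log2 summed level of the marker genes of adipocytes, of macrophages and monocytes, and of endothelium on each array, with hGAS left, Gas-/- in the middle and WT right; symbols are replicates and bars are the mean and SD (n = 3). The 3 Gas-/- arrays stand above all others for Cd36 (7.90 to 8.40) and for the adipocyte (10.68 to 11.32) and macrophage (12.87 to 13.02) sums.

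Of the carnitine shuttle, Cpt2 passed in 1 comparison, and no difference of Cpt1a passed. Cpt1a, the liver-type outer-membrane enzyme that sets the rate of mitochondrial fatty acid entry, had log2 values of 10.49, 10.54 and 10.65 in hGAS mucosa, 10.59, 10.67 and 10.55 in Gas-/- mucosa, and 10.74, 10.57 and 10.75 in WT mucosa on probe set 1460409_at. The groups overlapped in every comparison. Its differences were −0.08 in Gas-/- against WT (95% interval −0.23 to 0.06, limma adjusted p = 0.461), −0.12 in hGAS against WT (−0.27 to 0.02, 0.427) and −0.04 in hGAS against Gas-/- (−0.19 to 0.10, 0.699). The other 2 Cpt1a probe sets gave 0.06 and 0.16 in Gas-/- against WT, so the sign of this small difference depended on the probe set.

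Cpt2, the inner-membrane partner, read 10.24, 10.37 and 10.36 in hGAS mucosa, 10.07, 10.17 and 10.05 in Gas-/- mucosa, and 10.21, 10.15 and 10.07 in WT mucosa on probe set 1416772_at. All 3 hGAS arrays were above all others. Cpt2 rose in hGAS against Gas-/- mucosa by 0.23 (SE 0.06, limma adjusted p = 0.0267), and the groups averaged 10.32 ± 0.07 and 10.10 ± 0.07 (SD, n = 3 each). In hGAS against WT the difference was 0.18 (95% interval 0.05 to 0.31, limma adjusted p = 0.180), and in Gas-/- against WT it was −0.04 (−0.17 to 0.09, 0.687). The call in hGAS against Gas-/- was lost without Gas-/- replicate 1 (adjusted p = 0.0903) or 3 (0.0963), without hGAS replicate 2 (0.0745) or 3 (0.0765), and with the gene's probe sets averaged (0.15, limma adjusted p = 0.0720). The second Cpt2 probe set was near background, between 3.72 and 3.86 on all 9 arrays.

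Among the 4 beta-oxidation enzymes, Acadl changed, and Acadm, Hadha and Acaa2 did not pass in any pairwise comparison. Acadl, the long-chain acyl-CoA dehydrogenase, is 1 of the enzymes of the first step of the cycle. On probe set 1448987_at its log2 values were 11.57, 11.58 and 11.62 in hGAS mucosa, 11.36, 11.44 and 11.30 in Gas-/- mucosa, and 11.61, 11.55 and 11.55 in WT mucosa. The 3 Gas-/- arrays were below all 6 others, and hGAS and WT mucosa overlapped. Acadl fell in Gas-/- against WT mucosa by a log2 difference of −0.21 (SE 0.04, limma adjusted p = 0.0156), and rose in hGAS against Gas-/- mucosa by 0.22 (95% interval 0.12 to 0.32, limma adjusted p = 0.00899). Between hGAS and WT mucosa the difference was 0.02 (−0.09 to 0.12, limma adjusted p = 0.921). The call against WT was lost without WT replicate 1 (adjusted p = 0.0568), Gas-/- replicate 1 (0.0556) or Gas-/- replicate 3 (0.0635). The second Acadl probe set lay at 2.47 to 2.53 on all arrays, and averaging both probe sets took the differences to −0.10 in Gas-/- against WT (limma adjusted p = 0.170) and 0.10 in hGAS against Gas-/- (0.122).

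Acadm, the medium-chain acyl-CoA dehydrogenase, had log2 values of 10.98, 11.03 and 11.12 in hGAS mucosa, 11.02, 11.05 and 11.00 in Gas-/- mucosa, and 10.91, 10.82 and 11.00 in WT mucosa. Gas-/- and WT mucosa did not overlap, but the margin was under 0.01. Its differences were 0.12 in Gas-/- against WT (95% interval −0.01 to 0.24, limma adjusted p = 0.218), 0.14 in hGAS against WT (0.01 to 0.26, 0.306) and 0.02 in hGAS against Gas-/- (−0.11 to 0.14, 0.862). Hadha, the alpha subunit of the mitochondrial trifunctional protein, which carries the hydratase and dehydrogenase steps for long chains, read 10.82, 10.74 and 10.93 in hGAS mucosa, 10.75, 10.83 and 10.69 in Gas-/- mucosa, and 10.80, 10.78 and 10.72 in WT mucosa. The groups overlapped throughout. Hadha differed by −0.01 in Gas-/- against WT (−0.14 to 0.12, limma adjusted p = 0.942), 0.06 in hGAS against WT (−0.07 to 0.19, 0.688) and 0.07 in hGAS against Gas-/- (−0.06 to 0.20, 0.433).

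Acaa2, the mitochondrial thiolase that closes the cycle, read 10.75, 10.50 and 10.53 in hGAS mucosa, 10.33, 10.48 and 10.16 in Gas-/- mucosa, and 10.27, 10.06 and 10.24 in WT mucosa on probe set 1428145_at. The hGAS arrays were above all others. The differences, 0.40 in hGAS against WT (95% interval 0.18 to 0.62, limma adjusted p = 0.0890) and 0.27 in hGAS against Gas-/- (0.05 to 0.49, 0.0893), did not pass, and in Gas-/- against WT the difference was 0.13 (−0.09 to 0.35, 0.440). The 3 Acaa2 probe sets disagreed on 1 array. hGAS replicate 1 was the highest of all 9 arrays on 1428145_at (10.75) and on 1455061_a_at (10.09), and the lowest on 1428146_s_at (9.96). The hGAS against WT difference was 0.36 on 1455061_a_at and 0.15 on 1428146_s_at.

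**Figure D4:**
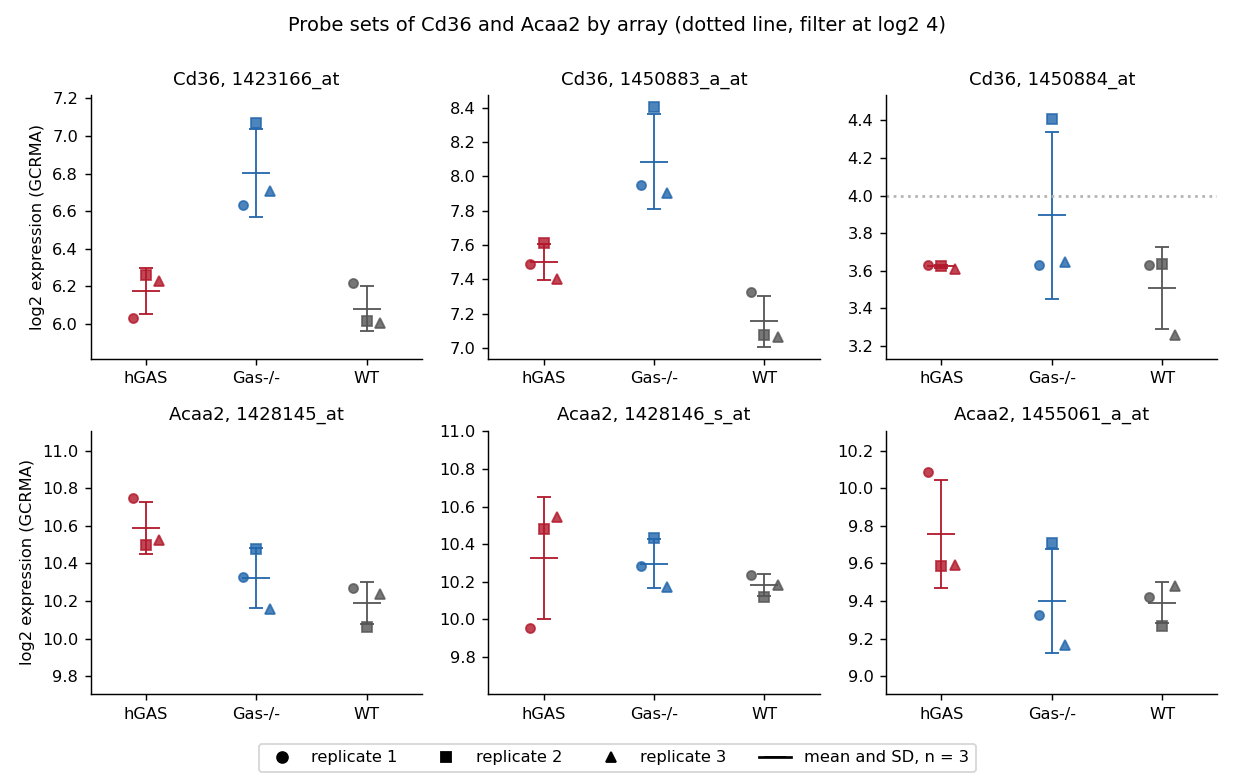
The log2 value on each array of each probe set of Cd36 and of Acaa2, with hGAS left, Gas-/- in the middle and WT right; symbols are replicates and bars are the mean and SD (n = 3). Both bright Cd36 probe sets are highest in Gas-/- mucosa (7.90 to 8.40 and 6.63 to 7.07), and hGAS replicate 1 stands lowest on one Acaa2 probe set (9.96) and highest on the others (10.75 and 10.09).

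Pdk4, a kinase that switches off pyruvate dehydrogenase and so shifts cells from glucose to fatty acids, had the largest difference of the 8 genes in hGAS against WT mucosa and also the largest spread. Its log2 values were 6.75, 8.05 and 7.00 in hGAS mucosa, 6.60, 6.93 and 6.45 in Gas-/- mucosa, and 6.23, 6.76 and 5.56 in WT mucosa. hGAS replicate 2 was the highest array and WT replicate 3 the lowest, and all groups overlapped. Pdk4 averaged 7.27 ± 0.69 in hGAS and 6.19 ± 0.60 in WT mucosa (SD, n = 3 each), a difference of 1.08 (95% interval 0.27 to 1.89, limma adjusted p = 0.205), which was 0.69 without hGAS replicate 2 and 0.77 without WT replicate 3. The differences of 0.47 in Gas-/- against WT (−0.34 to 1.28, limma adjusted p = 0.453) and 0.61 in hGAS against Gas-/- (−0.20 to 1.42, 0.288) did not pass. Without WT replicate 3 the difference in Gas-/- against WT was 0.16 (limma adjusted p = 0.827).

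Around the 8 genes, 8 lists of related genes held 91 others, of which 83 were measured and 69 passed the filter. In hGAS against Gas-/- mucosa, 12 of the 69 rose (17.4%, against 8.05% of all genes) and 2 fell (2.90%, against 8.51%), with a median difference of 0.08 (0.00 over all genes). In Gas-/- against WT mucosa 0 rose and 3 fell, 4.35% of the 69 against 12.1% of all genes in either direction. These 3 were Acad9 (−0.43, limma adjusted p = 0.00316), Decr2 (−0.55, 0.00825) and Slc16a1 (−0.36, 0.0174). The count uses the brightest probe set of each gene. With every probe set as a feature, the second probe sets of Decr1 (−0.64, limma adjusted p = 0.00904) and Slc25a20 (−0.33, 0.0220) were also lower in Gas-/- than in WT mucosa. In hGAS against WT mucosa 0 of the 69 passed by limma. An unadjusted p under 0.05 was found for 18, a count for which the share of all genes was not taken. The count of 12 was 3 without Gas-/- replicate 3, 7 without Gas-/- replicate 1 and 7 without hGAS replicate 2. With the replicate number as a block, 10 rose and 4 fell in hGAS against Gas-/- mucosa, since Pex11a (adjusted p = 0.0564) and Echs1 (0.0583) no longer passed and Fabp4 (−0.75, 0.0191) and Pdp1 (−0.47, 0.0492) did. The count of 2 that fell in hGAS against Gas-/- was 5 without WT replicate 3, and the count of 3 that fell in Gas-/- against WT was 5 without WT replicate 2.

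**Figure D5:**
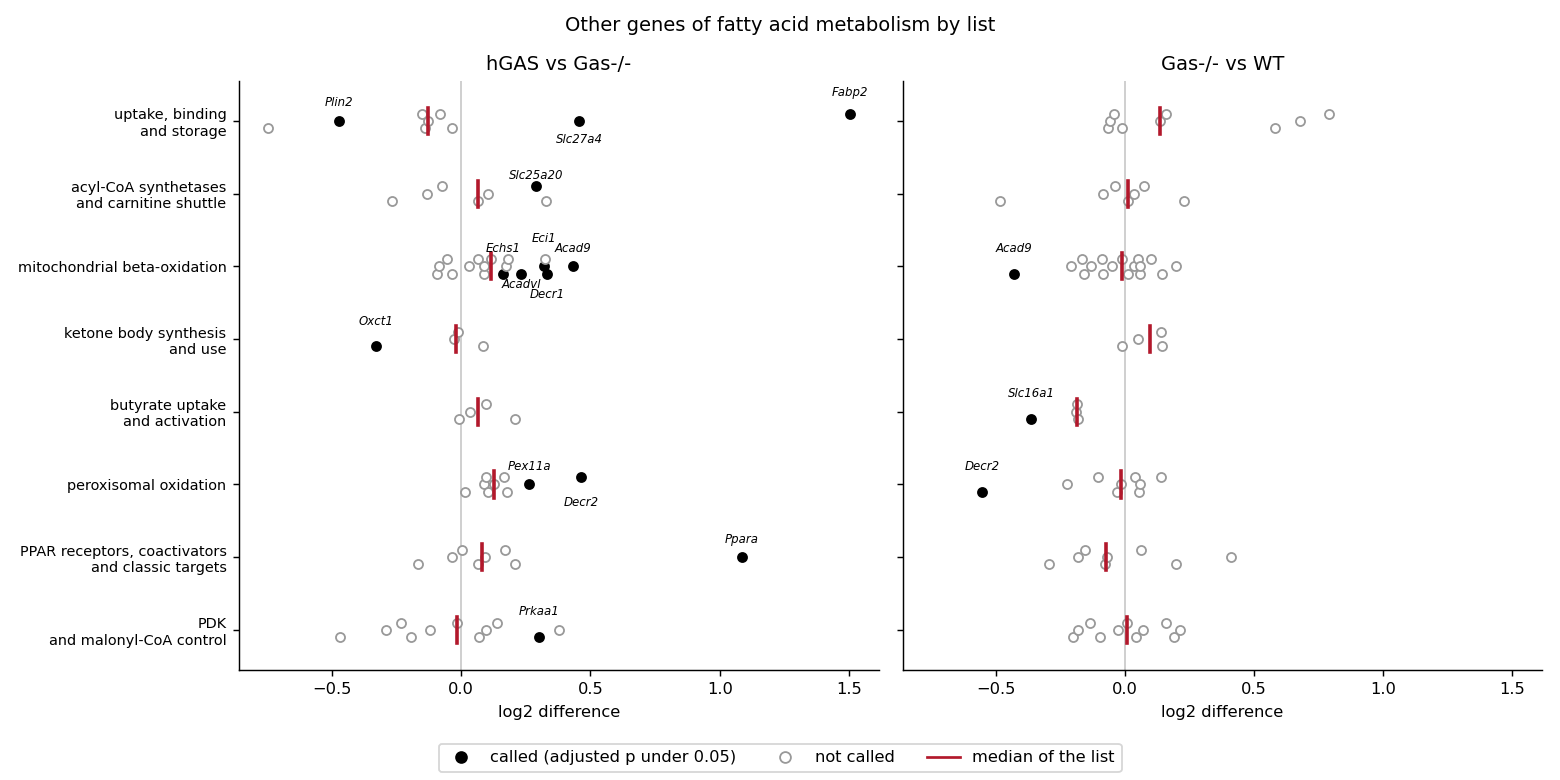
The log2 difference of each tested gene of the 8 lists, 1 row per list, in hGAS against Gas-/- mucosa (left panel) and in Gas-/- against WT mucosa (right panel); filled points passed an adjusted p of 0.05, and vertical bars are list medians. On the left 12 filled points lie above 0 and 2 below, and on the right 3 lie below 0.

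In hGAS against Gas-/- mucosa, 22.2% of the tested genes rose in the uptake and storage list and 22.2% in the peroxisomal list. In the larger beta-oxidation list 0 of 17 tested genes fell (8.51% of all genes) and 5 rose (29.4%, against 8.05% of all genes). These were Acad9 (0.43, limma adjusted p = 0.00237), an acyl-CoA dehydrogenase also needed to assemble respiratory complex I, Decr1 (0.33, 0.0177) and Eci1 (0.32, 0.0137), which handle unsaturated chains, Acadvl (0.23, 0.0161), the very-long-chain dehydrogenase, and Echs1 (0.16, 0.0448), the short-chain hydratase. Acads, the short-chain dehydrogenase of the butyrate route, had a difference of 0.17 (limma adjusted p = 0.156), and Hadhb, the partner subunit of Hadha, one of 0.09 (0.523). The second Decr1 probe set gave 0.65 (limma adjusted p = 0.00666). The other Acad9 probe sets gave −0.31 and 0.08, and with its probe sets averaged its differences were 0.07 in hGAS against Gas-/- (limma adjusted p = 0.615) and −0.15 in Gas-/- against WT (0.273). Without Gas-/- replicate 3, Acadvl (adjusted p = 0.0591), Eci1 (0.057) and Decr1 (0.0538) no longer passed, and Decr1 did not without hGAS replicate 1 (0.066). Echs1 passed in 9 of 21 settings and was lost on leaving out 7 of the 9 arrays, at an adjusted p of 0.0556 to 0.144. Slc25a20, the carnitine-acylcarnitine carrier between Cpt1a and Cpt2, rose by 0.29 (limma adjusted p = 0.0148, and 0.0591 without Gas-/- replicate 3), the 1 of 7 tested synthetase and carnitine shuttle genes that passed, and its second probe set gave 0.37 (0.0108).

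Of 9 peroxisomal genes tested, Decr2 (0.46, limma adjusted p = 0.0159), a peroxisomal dienoyl-CoA reductase, and Pex11a (0.26, 0.0488), a peroxisome division protein, rose in hGAS against Gas-/- mucosa. Decr2 read 7.59, 7.63 and 7.57 in hGAS mucosa, 7.17, 7.29 and 6.94 in Gas-/- mucosa, and 7.86, 7.53 and 7.67 in WT mucosa, so the Gas-/- arrays were the low ones. Its adjusted p in hGAS against Gas-/- was 0.0554 without Gas-/- replicate 3, and Pex11a passed in 8 of 21 settings. Acaa1b, also of this list, was not tested because only 2 arrays reached 4. It read 4.57, 6.26 and 3.74 in hGAS mucosa, 2.57 to 2.65 in Gas-/- and 2.55 to 2.64 in WT mucosa. Of 4 ketone body genes tested, Oxct1, the enzyme that activates ketone bodies for use, fell in hGAS against Gas-/- mucosa (−0.33, limma adjusted p = 0.00238). Its values were 12.47, 12.34 and 12.51 in hGAS mucosa and 12.81, 12.72 and 12.77 in Gas-/- mucosa, and its 4 probe sets gave −0.32 to −0.33. None of the 4 butyrate genes passed in this comparison, where Slc16a1, the monocarboxylate transporter MCT1, had a difference of 0.21 (limma adjusted p = 0.109). The fall of Slc16a1 in Gas-/- against WT was lost without any 1 of the Gas-/- arrays (adjusted p of 0.0534, 0.051 and 0.062) and with its probe sets averaged (−0.16, 0.103).

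Of the PPAR list, Ppara was the 1 of 8 tested genes that rose in hGAS against Gas-/- mucosa. Its log2 values were 6.88, 7.79 and 7.03 in hGAS mucosa, 6.20, 6.05 and 6.20 in Gas-/- mucosa, and 6.40, 6.46 and 6.47 in WT mucosa. Every hGAS array was above every other array, and replicate 2 stood highest, as it did for Pdk4. Ppara rose by 1.09 (limma adjusted p = 0.00509) on this probe set, and its 3 probe sets gave 1.09, 1.21 and 0.85. Against WT the difference was 0.79 (limma adjusted p = 0.0945), and 1 other probe set passed against WT (0.90, 0.0375). The related receptors Ppard (−0.04, limma adjusted p = 0.853) and Pparg (0.21, 0.492) did not pass in hGAS against Gas-/- mucosa. Of 11 genes of pyruvate dehydrogenase and malonyl-CoA control, 1 passed, Prkaa1, a catalytic subunit of the energy-sensing kinase AMPK (0.30, limma adjusted p = 0.0180). It was lost without Gas-/- replicate 1 or 2 or hGAS replicate 1 or 2, at an adjusted p of 0.0542 to 0.0659.

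In the uptake and storage list, Fabp2, the intestinal fatty acid binding protein (1.50, limma adjusted p = 0.0417), and Slc27a4, a fatty acid transport protein of enterocytes (0.46, 0.0220), rose in hGAS against Gas-/- mucosa, and Plin2, a lipid droplet coat protein, fell (−0.47, 0.00605). Fabp2 read 12.61, 12.79 and 12.55 in hGAS mucosa, 11.28, 11.41 and 10.75 in Gas-/- mucosa, and 11.78, 11.85 and 9.94 in WT mucosa, where replicate 3 was far below the others. Its rise was lost on leaving out any 1 of the 6 hGAS and Gas-/- arrays (adjusted p of 0.0686 to 0.137), and that of Slc27a4 without Gas-/- replicate 1 (0.0848) or 3 (0.0801) or hGAS replicate 2 (0.0544). Without WT replicate 3 the Fabp2 difference in hGAS against Gas-/- mucosa was the same and its adjusted p was 0.000288. Plin2 read 10.62, 10.64 and 10.95 in hGAS mucosa and 11.26, 11.23 and 11.13 in Gas-/- mucosa, without overlap. Fabp2 is also a small-intestinal enterocyte marker. The 9 measured of 10 such markers summed to 12.64–12.88 in hGAS, 10.89–11.51 in Gas-/- and 10.19–11.94 in WT mucosa. This sum is mostly Fabp2 itself, so it is no separate measure beside the Fabp2 difference. Fabp2 averaged 12.65 in hGAS, 11.15 in Gas-/- and 11.19 in WT mucosa, and the sum 12.74, 11.26 and 11.33. Of the 4 markers that passed the filter, 3 rose in hGAS against Gas-/- mucosa (Alpi by 2.72, Fabp2 by 1.50 and Apob by 0.52). Apoc3, Apoa1, Mttp, Apoa4 and Lct were below 4 on all arrays. Colonocyte markers summed to 15.80–15.86 in hGAS, 15.70–15.80 in Gas-/- and 15.63–15.82 in WT mucosa. The sum hides opposite changes among these 8 genes. In Gas-/- against WT 1 rose and 2 fell, in hGAS against WT 1 rose and 1 fell, and in hGAS against Gas-/- 2 rose and 1 fell. Ceacam20 averaged 10.58 in hGAS, 9.24 in Gas-/- and 10.80 in WT mucosa, and Guca2b 7.63, 8.48 and 7.19. The part of these cells in the oxidation gene differences was not tested.

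The genes most like each of the 4 genes with an F test past the threshold were ranked by Pearson correlation over the 9 arrays, which share genotypes, so the values are a description. For Cd36 they were Lepr (0.959), Map9 (0.957) and Cpne2 (0.955). Map9 was near background, at 4.08 to 4.52 in Gas-/-, 3.74 to 3.85 in hGAS and 3.48 to 3.83 in WT mucosa. It passed the filter only through the Gas-/- arrays, where Cd36 is high, so its likeness to Cd36 is no separate result. For Cpt2 they were Abcb6 (0.964), Tfam (0.956) and Mpst (0.943). Tfam, the factor that transcribes and packages mitochondrial DNA, lay at 9.23 to 9.28 in hGAS, 8.95 to 9.07 in Gas-/- and 9.01 to 9.15 in WT mucosa. For Acadl they were Mrpl3 (0.979), Mt2 (0.978) and Cftr (0.973). Cftr, the epithelial chloride channel, averaged 10.42 ± 0.06 in hGAS, 9.60 ± 0.17 in Gas-/- and 10.30 ± 0.15 in WT mucosa (SD, n = 3 each). For Acaa2 they were Rnase4 (0.957), Acads (0.943) and Lig4 (0.939).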

How the data were processed

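RNA of colonic mucosa was hybridised to 9 arrays, 3 per genotype. The deposited values are log2 expression made with GCRMA, per the submitters' processing notes, which give no version. GCRMA subtracts a background that depends on base content, sets all arrays to 1 distribution and gives 1 value per probe set, so small differences can depend on that scaling. From there, probe sets were named through the platform annotation, and 34741 of the 34945 with 1 gene were matched to RefSeq. Each gene was read from its probe set with the highest mean, and 11273 genes with at least 3 arrays at 4 were fitted with limma 3.58.1 in R 4.3.3 (lmFit, eBayes with trend, genotype as the only term, 6 residual and 3.47 prior degrees of freedom). P-values are 2-sided, adjusted by Benjamini-Hochberg over all genes, with a threshold of 0.05. The number of arrays limits the precision. Motifs were counted in Python 3.11.15.

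The members and lists were chosen with earlier results of these data known. Named genes were all members, the called list genes and a few fixed neighbours (Acads, Hadhb, Ppard, Pparg). Acaa1b, which did not pass the filter, was added after seeing the data. Like genes were the 3 with the highest correlation for each member past the F test. Marker sums add linear values and are given as log2. Whether replicate numbers pair arrays was checked by correlating deviations from group means. Same-numbered arrays gave 0.15, −0.01 and 0.15 for Gas-/- and WT, and 0.25, 0.08 and 0.20 for hGAS and WT. For hGAS and Gas-/- they gave 0.12, 0.20 and 0.27, which was read as a hint of pairing. The main fit of every comparison was unpaired, and the replicate block was only an alternative setting. Alternatives were other probe set rules, filters, scalings, variance models, the replicate block and leaving out each array, and for the related gene lists they were added after seeing the data.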

Additional observations from a re-analysis of the deposited data

How the results depend on the processing

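The counts, the differences of the 8 genes and those of the list genes named as passing or as fixed neighbours were recomputed under 12 other settings and without each array in turn, except that Pparg had 11 other settings. Differences of these list genes in their other comparisons and of marker genes were not recomputed. Of the values for single genes, 869 kept their direction and side of the threshold, 66 no longer passed, 2 newly passed and 7 turned round. The cause was not tested. The 7 were all small: Acadl in hGAS against WT (−0.0040 when quantile normalised again), Cpt1a in Gas-/- against WT (0.048 with probe sets averaged), Hadha in Gas-/- against WT (0.0083 without WT replicate 1 and 0.022 without Gas-/- replicate 3, in a range of −0.045 to 0.022), Ppard in hGAS against Gas-/- (without Gas-/- replicate 2 or hGAS replicate 1, in a range of −0.12 to 0.073) and Acadm in hGAS against Gas-/- (−0.021 without hGAS replicate 3, in a range of −0.021 to 0.051). The rise of Cd36 in Gas-/- against WT passed in 21 of 21 settings. Acaa2 passed in hGAS against Gas-/- only with array weights (0.30, limma adjusted p = 0.0477).

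With the replicate block, 283 genes and 1 member, Pdk4 (limma adjusted p = 0.0360), passed in hGAS against WT, 1 related gene rose in Gas-/- against WT, 1 fell in hGAS against WT and 4 fell in hGAS against Gas-/-. In the pairs of genotypes that include WT, same-numbered arrays correlated at −0.01 to 0.25, so whether they form pairs is not settled. The block changed no other call of a member. With probe sets averaged, 1 member passed in Gas-/- against WT and 1 in hGAS against Gas-/-, where 4 related genes fell. The averages of Acadl and Cpt2 each take in a probe set near background. With every probe set as a feature, 2177 features passed in Gas-/- against WT and 2928 in hGAS against Gas-/-. Without a filter 58 genes passed in hGAS against WT, and with only the 6 arrays compared 27 did. With those 6 arrays 1 related gene rose in Gas-/- against WT and 4 fell in hGAS against Gas-/-. With array weights 5 fell in Gas-/- against WT and 4 in hGAS against Gas-/-.

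Leaving out 1 array gave 888 to 1375 genes in Gas-/- against WT, 26 to 104 in hGAS against WT and 1219 to 1996 in hGAS against Gas-/-. Members that passed numbered 1 to 2, 0 to 0 and 1 to 3 in these comparisons. Related genes that rose numbered 0 to 1 in Gas-/- against WT, 0 to 0 in hGAS against WT and 3 to 13 in hGAS against Gas-/-, and those that fell numbered 2 to 5, 0 to 1 and 2 to 5.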
